A study of Mus musculus with 16 samples.

Results

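Dexamethasone (Dex), a synthetic glucocorticoid, raised a defined set of genes within 1 hr when it was added together with LPS to bone-marrow-derived macrophages (BMDM), and these 100 genes are described here. They were chosen by their measured response. For each of 6 mice, the log2 CPM (log2 of the reads of a gene scaled to library size, as the authors wrote it) of the LPS library was subtracted from that of the LPS + Dex library, and the smallest of the 6 differences was the score of a gene. Genes with a mean under 1 over the LPS + Dex libraries were left out, as were 5 named GR targets (Tsc22d3, Fkbp5, Per1, Sgk1 and Ddit4) and every symbol starting with Dusp, Klf, Zfp or Slc. The 100 highest scores of the 9212 eligible genes, from a table of 9614 genes, are the members. Because the members were selected on LPS + Dex minus LPS, that difference is reported as a description with no test.

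The cells came from male C57BL/6 mice aged 8 weeks that all carried LysM-Cre, a Cre recombinase expressed in myeloid cells, with either an intact NELF-B gene (LysM-Cre:NELF-B wt/wt, WT) or floxed alleles (LysM-Cre:NELF-B fl/fl, KO). NELF-B is a subunit of the negative elongation factor, which holds RNA polymerase II near the start of genes. Each genotype gave 2 RNA-seq libraries of untreated BMDM, 3 of BMDM exposed to LPS at 10 ng/ml and 3 of BMDM exposed to the same LPS with 100 nM Dex, both for 1 hr. Each treated library has a partner from the same mouse. Mice are named by genotype and by the number in their labels, and values per mouse follow the order WT187, WT198, WT112, KO186, KO185 and KO127. Untreated cells were sequenced for WT198, WT112, KO185 and KO127 only, and their values follow that order.

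Glucocorticoids act through the glucocorticoid receptor (GR), a transcription factor that enters the nucleus when it binds hormone. It activates genes mostly from glucocorticoid response elements, paired short sites with a gap between them, and represses many inflammatory genes. LPS, a cell wall component of bacteria, signals through TLR4 and turns on NF-kB and AP-1, so that the cells described here received an activating and a restraining signal at the same time. Genes that glucocorticoids raise in macrophages are known to include negative regulators of kinases, clock genes and metabolic enzymes.

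The libraries held 25030999 to 49730049 reads, recovered from the steps of the values. The deleted gene, Nelfb, was at 5.59 to 5.76 log2 CPM in the WT and 3.27 to 4.21 in the KO with LPS, so that some transcript was left in every KO library. Nr3c1, which encodes GR, was at 6.48 to 7.16 log2 CPM with LPS in the WT and 6.50 to 7.20 in the KO. Of 10 macrophage markers, 9 were in the table, with a summed level of 6809 to 9729 CPM over the libraries. Of 6 stromal markers, 4 were present at a summed level of 64.4 to 111 CPM with LPS and 94.4 to 122 CPM with LPS + Dex in the WT, and of 99.7 to 125 and 105 to 145 CPM in the KO. S100a8 was the only 1 of 8 neutrophil markers in the table, Cd79b the only B cell and Pecam1 the only endothelial marker, and no dendritic, T and NK, erythroid or mast cell marker was listed. S100a8, which neutrophils express most, was at 5.46 to 20.5 CPM with LPS in the WT and 7.84 to 24.2 CPM with LPS + Dex, and at 13.9 to 36.3 and 20.6 to 41.5 CPM in the KO. Within mice, S100a8 was higher with LPS + Dex than with LPS in all 6, by 0.29 log2 on average. The part of other cells in the results was not tested, and in bulk RNA fewer cells of a type cannot be told apart from less RNA per cell. The untreated library of WT198 stood apart, with a correlation across genes of 0.83 to 0.909 with the other libraries against 0.924 to 0.993 among the rest, and the counts against untreated cells are given without it as well.

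The scores of the members ran from 4.51 for Fzd4 to 0.447 for Cd300lf, with a median of 0.696, and 29 members scored above 1, which is a doubling in every mouse. The last members were Skp2 (0.453), Thbd (0.449) and Cd300lf (0.447), and the first genes left outside were Rcsd1 (0.441), Tbc1d14 (0.439) and Cdk20 (0.433), so the border fell within a continuous range. The mean difference over the 6 mice had a median of 0.95 over the members (1.93-fold), beside -0.01 over all 9614 genes. Every LPS + Dex library was above every LPS library, mice mixed, for 71 members, beside 1.45% of all genes, and the rule itself favours such genes. The median of the members was 0.89, 0.83 and 1.03 in the WT mice and 0.96, 0.92 and 1.10 in the KO mice. WT198 had the smallest response of the 6 mice for 38 members and KO127 the largest for 47.

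**Figure D1:**
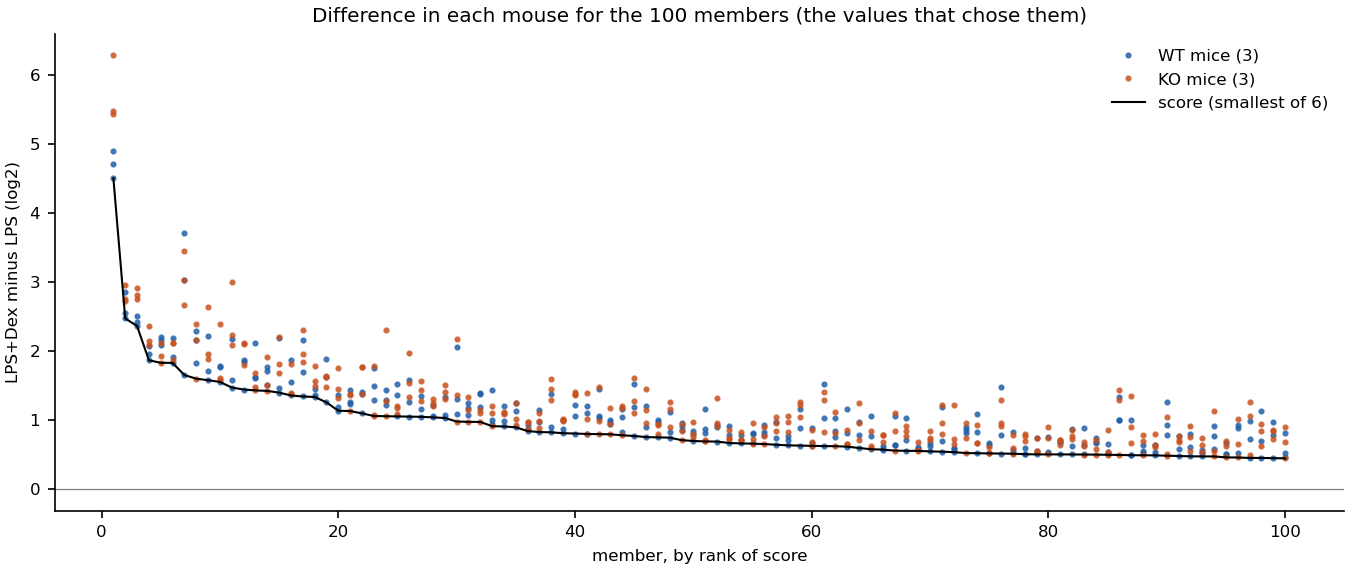
LPS + Dex minus LPS (log2) in each mouse for the 100 members, ordered by score. Points are mice (blue, 3 WT; orange, 3 KO) and the black line is the smallest of the 6 values, which falls from 4.51 to 0.447 with a steep start and a long flat end.

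Promoters from RefSeq (GRCm38.p6, 250 bases before to 50 after each start) matched 85 of the 100 members and 7816 of the 9614 genes. They were searched for the letters of the glucocorticoid response element, of 1 arm of it, and of the AP-1 and NF-kB sites through which LPS acts. The full element, the arm AGAACA followed by any 3 letters and its reverse complement, was in 0 of the 85 promoters exactly and in 0 with at most 2 changed letters, beside 1.1% of all promoters for the latter. The arm AGAACA alone, on either strand, was in 11 of 85 (12.9%), beside 14.2% of all promoters. The kB letters GGANTTTCC on either strand were in 1 (1.2%), beside 1.7%. The AP-1 letters TGANTCA, a pattern that reads alike on both strands when N is any letter, were in 9 (10.6%), beside 6.3% of all promoters. The usual AP-1 site has C or G at N, and the share with only those letters was not counted. A match is a description and no match says only that the letters are not in this window, and GR is known to act from distant sites, which were not searched.

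The 9 matches of the AP-1 letters are shown because they are the only searched letters found in a larger share of the members than of all promoters, and the arm AGAACA of Fzd4 because it leads the members. Capitals mark the match, with 10 bases on each side, 5′ to 3′ on the strand of the gene. Of these, Il15ra, Sphk1, Sele and Mt2 carry the match at -30, -50, -73 and -79 from the RefSeq start of that window, and Fzd4 carries the arm AGAACA at 16 bases past it. Elf2, Havcr2 and Rbm38 hold T or A at N, so they match the loose pattern and not the usual AP-1 site. The RefSeq start used is not always the annotated 5′ end of the gene. It lies 0.422 kb downstream of that end in Il15ra, 0.912 kb in Sphk1, 1.4 kb in Rbm38, 63.1 kb in Elf2, 143 kb in Fam107b and 179 kb in Sgms1, and within 46 bases of it in Sele, Mt2, Havcr2 and Fzd4.
Il15ra (chr2:11705672-11705698, plus strand): gtggggatgcTGAGTCAcagatctgtc
Sphk1 (chr11:116531777-116531803, plus strand): agcgtgtcgcTGAGTCAccttctcgga
Sele (chr1:164048151-164048177, plus strand): taatgtcctaTGACTCAcaggaagcca
Mt2 (chr8:94172529-94172555, plus strand): aaagggggtgTGACTCAgcgcgggggg
Sgms1 (chr19:32211051-32211077, minus strand): gcgcggggccTGACTCActtcattagc
Elf2 (chr3:51277694-51277720, minus strand): aagaaaaattTGATTCAtggctctttt
Fam107b (chr2:3713412-3713438, plus strand): gacttagtgaTGACTCAgcggccccgc
Havcr2 (chr11:46454721-46454747, plus strand): tcctttttgtTGATTCAtgtaataaac
Rbm38 (chr2:173021681-173021707, plus strand): tgtaaaccacTGAATCAagcaacgctt
Fzd4 (chr7:89404371-89404396, plus strand): tggggcggtgAGAACAgcgcggcgta

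Fzd4, a Frizzled receptor for Wnt ligands and Norrin, stood far above the rest. Its transcript was low in untreated cells (-1.53, -1.64, -0.97 and -1.56 log2 CPM) and with LPS (-0.94, -1.36, -2.08, -1.79, -2.77 and -1.72). With LPS + Dex it reached 3.57, 3.35, 2.82, 3.65, 3.52 and 3.76 log2 CPM. The groups were separated by more than 3 log2 units, with 4 to 21 reads per LPS library against 219 to 488 with LPS + Dex. The difference was 4.71 ± 0.19 (SD, n = 3) in the WT and 5.74 ± 0.48 (SD, n = 3) in the KO, or 26.1-fold and 53.3-fold, and the few reads with LPS limit the precision of both folds. Fzd4 lies on chr7:89404355-89413134 (mm10, plus strand).

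Il15ra and Pfkfb3 came next and lie on the same stretch of chromosome 2. Il15ra, the receptor chain that presents IL-15 to neighbouring cells, was at 0.67 to 1.30 log2 CPM in untreated cells and at 2.05, 1.53, 1.37, 1.45, 1.33 and 1.40 with LPS. It was at 4.61, 4.01, 4.23, 4.17, 4.09 and 4.36 with LPS + Dex, 2.63 ± 0.21 higher in the WT and 2.81 ± 0.13 higher in the KO (SD, n = 3 each). Pfkfb3 encodes an enzyme that makes fructose 2,6-bisphosphate and so speeds glycolysis. It was at 6.65, 6.77, 7.29, 7.17, 7.07 and 7.65 log2 CPM with LPS and at 9.06, 9.13, 9.80, 9.92, 9.88 and 10.57 with LPS + Dex. WT mice differed by 2.43 ± 0.07 and KO mice by 2.83 ± 0.08 (SD, n = 3 each), and all 3 KO mice responded more than all 3 WT mice. Pfkfb3 was among the 3 members with the highest level under LPS + Dex, together with Saa3, an acute phase protein (9.41 to 10.40 log2 CPM), and Cited2, a coregulator that competes for CBP and p300 (9.02 to 10.08).

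**Figure D2:**
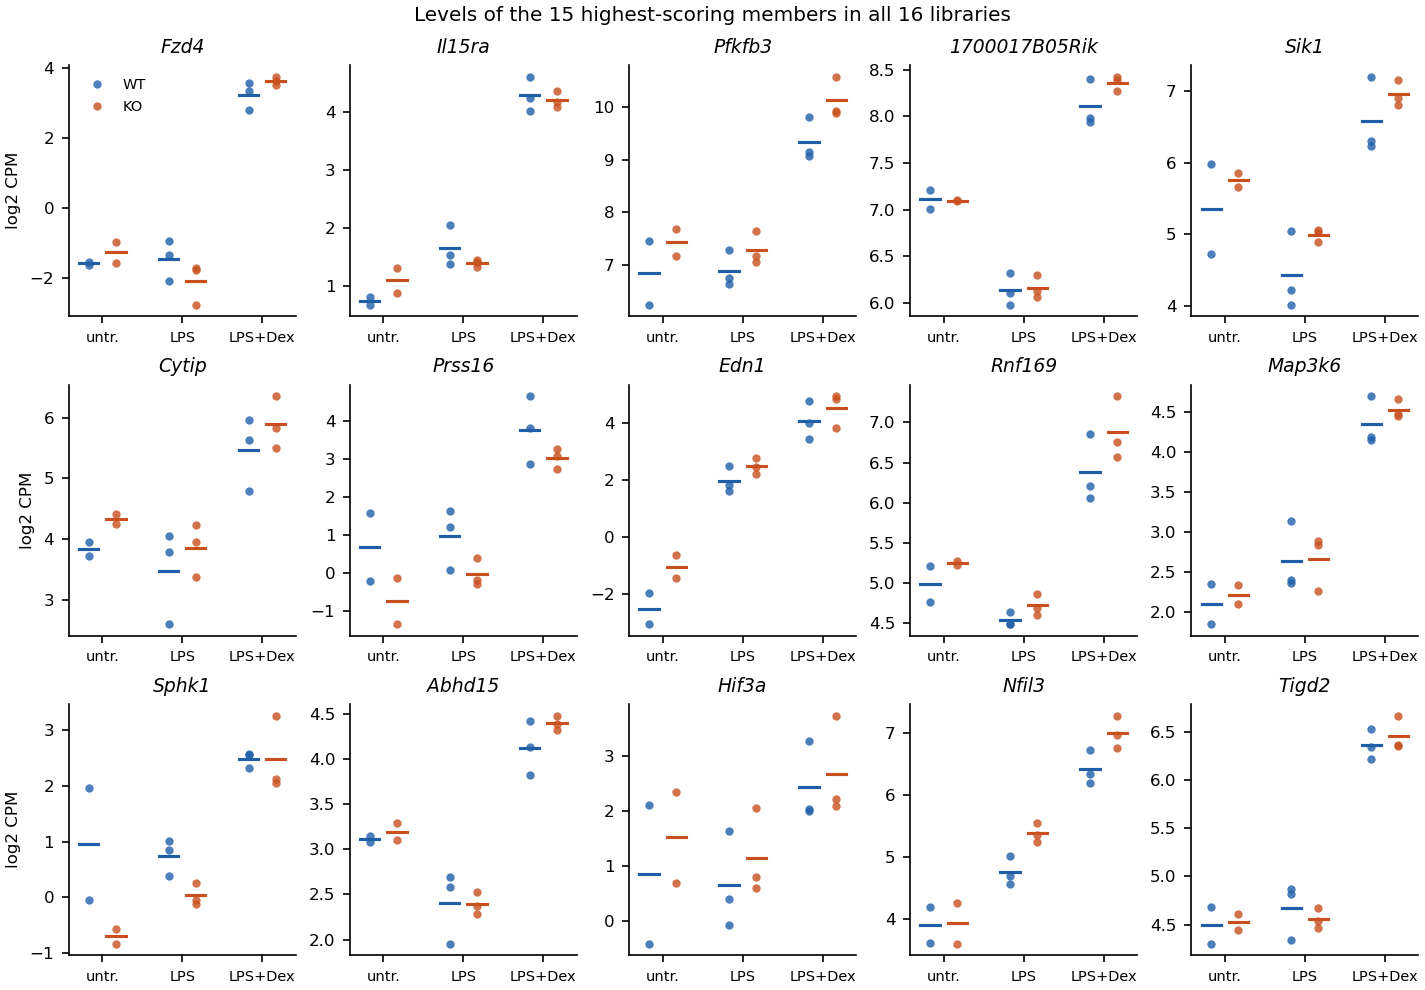
Level (log2 CPM) of the 15 members with the highest score in untreated, LPS and LPS + Dex libraries. Points are libraries, blue for WT and orange for KO, and bars are group means of 2 or 3 libraries. Tigd2 lay near its untreated level with LPS alone, whereas Edn1 rose with LPS and rose further with LPS + Dex.

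Kinases, phosphatases and adaptors made up 11 members. Sik1, a salt-inducible kinase that restrains CREB coactivators, was at 4.01, 4.22, 5.04, 4.88, 5.07 and 5.03 log2 CPM with LPS and at 6.23, 6.31, 7.20, 6.81, 6.90 and 7.16 with LPS + Dex, a difference of 2.15 ± 0.06 in the WT and 1.96 ± 0.15 in the KO. Cytip, which binds cytohesins and limits cell adhesion, differed by 1.98 ± 0.19 and 2.04 ± 0.15, and Map3k6, a stress kinase of the ASK family, by 1.70 ± 0.13 and 1.86 ± 0.46 (SD, n = 3 each). Pik3r1, the regulatory subunit of PI3 kinase, was even across mice, with 0.84, 0.87, 0.93, 0.97, 0.88 and 0.97. Wee1, a kinase that delays mitosis, was uneven, with 1.00, 1.33, 1.00, 1.30, 1.44 and 0.50. Ssh2, Sla, Stk17b, Gab3, Abl2 and Samsn1 completed the group.

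Transcription regulators numbered 8. Hif3a, an inhibitory member of the hypoxia-inducible factor family, differed by 1.79 ± 0.29 in the WT and 1.53 ± 0.14 in the KO. Its level varied between mice in every condition, from -0.07 to 2.06 log2 CPM with LPS and from 2.01 to 3.74 with LPS + Dex, so the groups overlapped although every mouse rose. Nfil3, a repressor of clock output genes, differed by 1.66 ± 0.14 and 1.62 ± 0.26, with 4.57 to 5.55 log2 CPM with LPS and 6.20 to 7.29 with LPS + Dex and no overlap. Jdp2, a repressor of AP-1, differed by 1.38 ± 0.06 and 1.62 ± 0.15, and Cited2 by 1.32 ± 0.24 and 1.16 ± 0.06 (SD, n = 3 each). Id1, an inhibitor of basic helix-loop-helix factors, was the member whose level stayed lowest against untreated cells and is described below with the LPS response.

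Surface receptors were the largest group with a shared role, 16 members with a median difference of 0.80. They included 3 receptor chains that use gp130 signalling. Il6st, which encodes gp130 itself, differed by 0.64, 0.64, 1.06, 0.84, 0.56 and 1.10, Il6ra, the IL-6 binding chain, by 0.79, 0.67, 0.82, 0.73, 0.66 and 0.96, and Lifr, the LIF receptor, by 0.91, 0.86, 0.81, 0.96, 0.75 and 0.52. Il6st reached 5.48 to 6.40 log2 CPM with LPS + Dex from 4.83 to 5.52 with LPS, and its lowest LPS + Dex library lay within the LPS range. Acvr2a, an activin receptor, differed by 0.80 to 1.40, Cnr2, a cannabinoid receptor, by 0.46 to 0.70, and Havcr2, which encodes the checkpoint receptor TIM-3, by 0.50 to 0.91. Sele, which encodes the adhesion receptor E-selectin and is known mainly from endothelium, differed by 1.73 ± 0.41 in the WT and 2.03 ± 0.24 in the KO, with 0.94 to 2.04 log2 CPM with LPS and 3.03 to 3.88 with LPS + Dex. Of the 4 endothelial markers, Pecam1 was the only 1 listed, at a summed level of 15.8 to 74.0 CPM over the libraries.

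Secreted proteins were 4 members. Edn1, the vasoconstrictor peptide endothelin-1, was at 2.49, 1.83, 1.63, 2.47, 2.79 and 2.23 log2 CPM with LPS and at 4.79, 4.0, 3.46, 4.86, 4.96 and 3.83 with LPS + Dex, 2.10 ± 0.24 higher in the WT and 2.06 ± 0.41 in the KO. Il10, the anti-inflammatory cytokine, was at 6.49, 6.45, 7.39, 6.99, 6.79 and 7.46 with LPS and at 7.65, 7.49, 8.22, 8.17, 7.99 and 8.25 with LPS + Dex, and every LPS + Dex library was above every LPS library. Lcn2, an iron-scavenging acute phase protein, differed by 1.49 ± 0.51 and 1.51 ± 0.61 with a wide range between mice, 0.98 to 2.18. Saa3 differed by 0.67 to 0.91.

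Carbohydrate and lipid metabolism contributed 12 members, led by Pfkfb3. Sphk1, which makes sphingosine 1-phosphate, was at 0.86, 1.00, 0.39, -0.12, -0.04 and 0.26 log2 CPM with LPS and at 2.33, 2.58, 2.56, 2.12, 2.05 and 3.26 with LPS + Dex. The LPS level was higher in all 3 WT libraries than in the KO libraries, whereas the LPS + Dex levels overlapped. Abhd15, an alpha/beta hydrolase-fold protein, differed by 1.72 ± 0.24 and 2.01 ± 0.18. Ppp1r3b, a glycogen-targeting subunit of protein phosphatase 1, differed by 1.30 ± 0.27 and 1.62 ± 0.33, and Chka, choline kinase alpha, by 1.03 ± 0.21 and 1.39 ± 0.02 (SD, n = 3 each).

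The remaining members included the metallothioneins, the ubiquitin pathway and cell death genes. Mt2 differed by 1.52 ± 0.24 in the WT and 1.31 ± 0.41 in the KO and Mt1, which lies 5.5 kb away, by 0.47 to 1.14. Metallothioneins bind zinc and copper, and the pair is similar in sequence, so that reads kept only when unique may divide between them unevenly. Rnf169, a ubiquitin ligase of the DNA damage response, differed by 1.84 ± 0.33 and 2.16 ± 0.42. The 6 members of the ubiquitin pathway had a median difference of 0.98. Bmf and Bcl2l1, a pro-apoptotic BH3-only protein and the anti-apoptotic Bcl-xL, differed by 0.97 to 1.40 and 0.52 to 0.67. 1700017B05Rik, Tigd2 and Prss16, which have no role assigned here, were among the first 15, and Prss16 varied most between mice, 1.66 in WT198 against 3.72 in WT112. Slfn3, Gm5431, Ms4a6b and Gpr31b belong to families with close copies and their values are uncertain to that extent.

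Of the 5 genes left out by name, Tsc22d3, a glucocorticoid-induced leucine zipper protein, would have ranked with a score of 3.62, Fkbp5, a chaperone that feeds back on GR, with 2.47, Per1, a clock gene, with 1.93 and Ddit4, an mTOR inhibitor, with 1.11. Sgk1 was not raised, with a score of -0.11 and 8.88 to 9.58 log2 CPM with LPS. Only Fzd4 scored above Tsc22d3. A list of 58 further genes described as glucocorticoid-induced in other cells held 12 members (Mt1, Mt2, Hif3a, Pik3r1, Lcn2, Il10, Rhob, Jdp2, Bcl2l1, Sphk1, Edn1 and Map3k6). Of the 58 genes, 27 rose in all 6 mice and 14 fell in all 6, beside 9.16% and 10.4% of all genes. Of 24 genes of PI3K, mTOR and FOXO signalling 10 rose in all 6 mice and 3 fell, and of 19 interleukin and growth factor receptors 4 rose (Il6ra, Il6st, Il15ra and Ifngr1) and 5 fell. In the following lists more genes fell than rose. Of 17 brakes on cytokine signalling 4 rose and 8 fell, of 26 genes of TGF-beta and BMP signalling 3 rose and 8 fell, of 19 chemotactic and purine receptors 2 rose and 11 fell, of 15 genes of MAPK and receptor tyrosine kinase feedback 2 rose and 4 fell, and of 16 clock genes 3 rose (Nfil3, Per1 and Per2) and 4 fell. These counts rest on the difference that chose the members.

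The members were placed against untreated cells to see where their levels stood with LPS alone and with LPS + Dex. No library received Dex alone, so whether Dex acts on these genes without LPS cannot be told here. With LPS alone, the mean of 75 members over 4 mice was within 1.5-fold of untreated, beside 90.5% of all genes. Over the same mice the median member was 0.12 log2 higher with LPS than without and 1.17 higher with LPS + Dex, beside -0.01 and -0.00 over all genes. Without WT198 the medians were 0.02 and 1.13. With LPS, 9 members were over 1.5-fold higher in all 4 mice, beside 3.31% of all genes, and 6 were over 1.5-fold lower, beside 0.967%, which leaves 85 members and 95.7% of all genes in neither class. With LPS + Dex, 60 members were over 1.5-fold higher than untreated in all 4 mice, beside 3.47%, and 1, Id1, was lower, beside 0.801%. These counts share libraries with the rule and have no test. Without WT198, an alternative chosen after seeing the data, the counts with LPS were 11 and 7, beside 3.62% and 1.43% of all genes, and those with LPS + Dex 72 and 1, beside 3.93% and 1.26%.

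**Figure D3:**
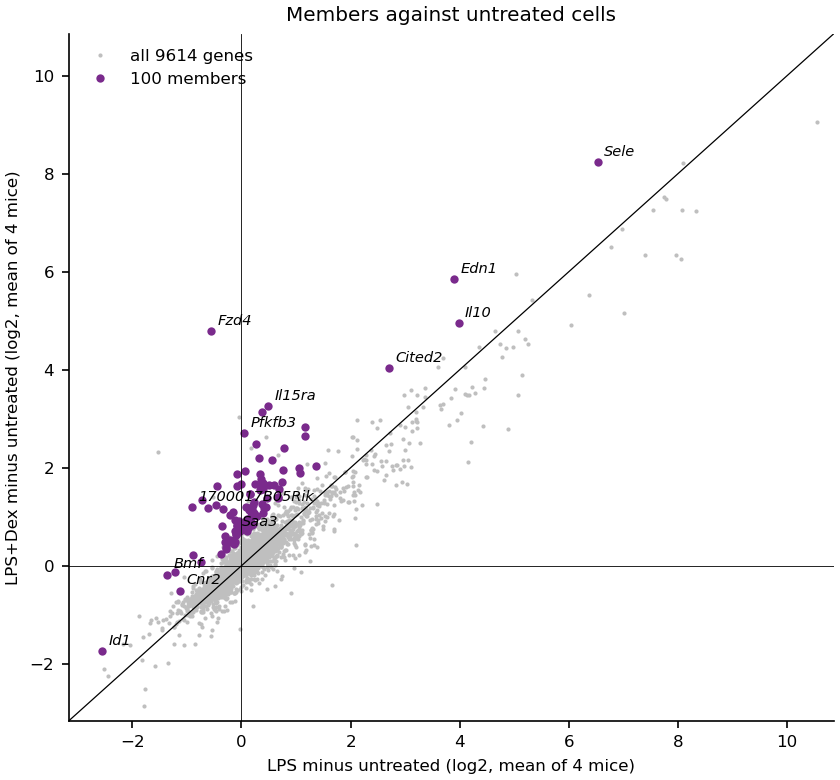
Mean over 4 mice of LPS + Dex minus untreated (vertical, log2) against LPS minus untreated (horizontal, log2), with 9614 genes in grey and the 100 members in purple. The line marks equal values. The members lie above it by selection, 75 of them within 1.5-fold of untreated on the horizontal axis, with Sele, Edn1, Il10 and Cited2 at the upper right and Id1, Bmf and Cnr2 at the lower left.

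The 9 members that LPS raised were Edn1, Sele, Jdp2, Cited2, Il10, Smim3, Sgms1, Plscr1 and Samsn1. Edn1 rose from -3.07, -1.97, -0.65 and -1.45 log2 CPM in untreated cells. Its counts there were 2, 7, 24 and 12 reads, so the ratio of LPS to untreated in WT198 was 38.9 with a 95% counting interval of 10.5 to 325, and in KO185, with the most reads, it was 11.3. Sele had 0, 0, 2 and 0 reads in untreated cells and 84 reads or more with LPS. With a floor of 3 reads per library it was at least 24.0-fold, 25.5-fold and 48.4-fold higher with LPS in WT198, WT112 and KO127, and 73.9-fold (20.0 to 617) in KO185, with intervals and floors that cover counting error only. With LPS + Dex it was at least 61.2-fold, 83.6-fold and 174-fold higher in the first 3 of these mice. Il10 varied widely in untreated cells, 1.02, 4.51, 2.03 and 4.6 log2 CPM, and was at 6.45 or more in every LPS library. Cited2 was at 4.83 to 6.29 untreated, 7.65 to 8.98 with LPS and 9.02 to 10.08 with LPS + Dex, 3 ranges that did not overlap.

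The 6 members that LPS lowered were 1700017B05Rik, Bmf, Ccnj, Gins3, Id1 and Cnr2. Ccnj encodes a cyclin and Gins3 a subunit of the replicative helicase. 1700017B05Rik was at 7.21, 7.01, 7.09 and 7.10 log2 CPM untreated, at 5.98 to 6.32 with LPS and at 7.94 to 8.43 with LPS + Dex, so LPS + Dex took it past the untreated level in every mouse. Bmf was at 3.68, 4.62, 4.56 and 4.46 untreated, 2.12 to 3.5 with LPS and 3.51 to 4.48 with LPS + Dex. Id1 was at 3.77, 2.67, 2.67 and 3.52 untreated, 0.17 to 1.67 with LPS and 0.94 to 2.29 with LPS + Dex, so it stayed below the untreated level in all 4 mice. Without regard to size, 18 members were lower with LPS in all 4 mice, beside 18.7% of all genes, and 31 were higher, beside 21.9%. Of these 18, 13 were above untreated with LPS + Dex in all 4 mice and 2, Id1 and Cnr2, were below it. The rule favours such a crossing and the matching share of all genes was not counted, so the 13 are no result about the members.

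A contrast that the rule did not score, the mean of LPS and LPS + Dex minus untreated, was tested in limma over all 16 libraries at an FDR under 0.1 and over 1.5-fold. The main fit had no term for the mouse, so the libraries of a mouse were taken as independent. This contrast holds a share of the Dex difference by construction. Calls upward therefore follow in part from the selection, are given as a description and show nothing about the members. Calls downward go against the selection. In the WT 44 members were higher and 3 lower, beside 8.31% and 5.34% of all genes. In the KO 31 were higher and 2 lower, beside 3.34% and 1.45%. Both genotypes called 29 members, 27 upward and 2 downward, and 51 members were called in at least 1 of them. The matching shares of all genes were not counted, so these numbers are no result about the members. The difference between the genotypes in this contrast was not tested. Blocking on the mouse (replicate block) gave 53 higher and 3 lower in the WT (1170 and 973 over all genes) and 42 and 4 in the KO (414 and 194 over all genes). With each library centred on its median gene, the split over all genes in the WT turned from 799 higher and 513 lower to 635 and 794, and that of the members was 41 and 4. Leaving out the untreated library of WT198 gave 32 members and 445 genes in all in the WT, leaving out that of WT112 gave 66 and 4534, and leaving out that of KO127 gave 17 and 300 in the KO, so these counts rest on a pair of untreated libraries per genotype.

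The highest members in this contrast, in both genotypes, were Sele, Edn1, Il10 and Cited2, which are given without a p. Cited2 was higher by 3.35 ± 0.26 (SE) in the WT and 3.44 ± 0.26 in the KO, Edn1 by 5.55 ± 0.43 and 4.57 ± 0.43, and Il10 by 4.52 ± 0.74 and 4.29 ± 0.74. The fitted values of Sele depend on the deposited floor, and the bounds in reads above stand for them. The members called lower in both genotypes were Id1 and Cnr2. Id1 fell by 2.17 ± 0.43 in the WT and by 1.56 ± 0.43 in the KO (limma adjusted p = 0.00603 and 0.0609). Cnr2 fell by 0.82 ± 0.20 and by 0.86 ± 0.20 (limma adjusted p = 0.0236 and 0.0245). Neither gene kept its call in every fit with an untreated library left out. Cnr2 was also not called in the WT when the 8 WT libraries were fitted alone or only mice with an untreated library were used. Bmf fell by 0.98 ± 0.26 in the WT (limma adjusted p = 0.0287) and did not pass in the KO (-0.71 ± 0.26, limma adjusted p = 0.215).

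Whether loss of NELF-B moved the members was asked by comparing KO with WT within each treatment, a comparison that the rule did not use. No member passed an FDR under 0.05 and 1.5-fold in limma in untreated, LPS or LPS + Dex cells, beside 0% of all genes in each, and voom on recovered reads called none of the members either. Nelfb itself fell by 2.02 ± 0.23 (SE) with LPS at a limma adjusted p of 0.105 and did not pass. The authors, who used edgeR, report many genes that differ between the genotypes with LPS + Dex at 1.5-fold and an FDR under 0.05. Their methods instead describe calls by unadjusted p, under 0.05 in the NELF-B KO experiment, so their threshold is not stated alike throughout. The absence of calls here, where Nelfb itself did not pass, is no sign that the genotypes are alike. In limma at an unadjusted p under 0.05, 1, 16 and 27 members differed in the 3 conditions, beside 0.385%, 8.44% and 11.3% of all genes. With a change over 1.5-fold as well, 1, 8 and 10 members differed, beside 0.385%, 3.53% and 3.75% of all genes. The 8 with LPS were 7 higher in the KO and Wee1, a mitotic inhibitor kinase, lower, and the 10 with LPS + Dex were 9 higher and again Wee1 lower. All KO libraries were above all WT libraries for 11 members with LPS and 20 with LPS + Dex, beside 5.91% and 8.93% of all genes, and below for 4 and 4, beside 7.82% and 8.83%. The median KO minus WT over the members was 0.26 in untreated cells, 0.11 with LPS and 0.21 with LPS + Dex, beside 0.02, 0.00 and 0.01 over all genes, and 74, 68 and 71 members were higher in the KO mean, beside 51.6%, 50.3% and 52.3% of all genes. Without the untreated library of WT198 the untreated median was 0.10, and without the LPS library of WT187 that with LPS was 0.07.

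**Figure D4:**
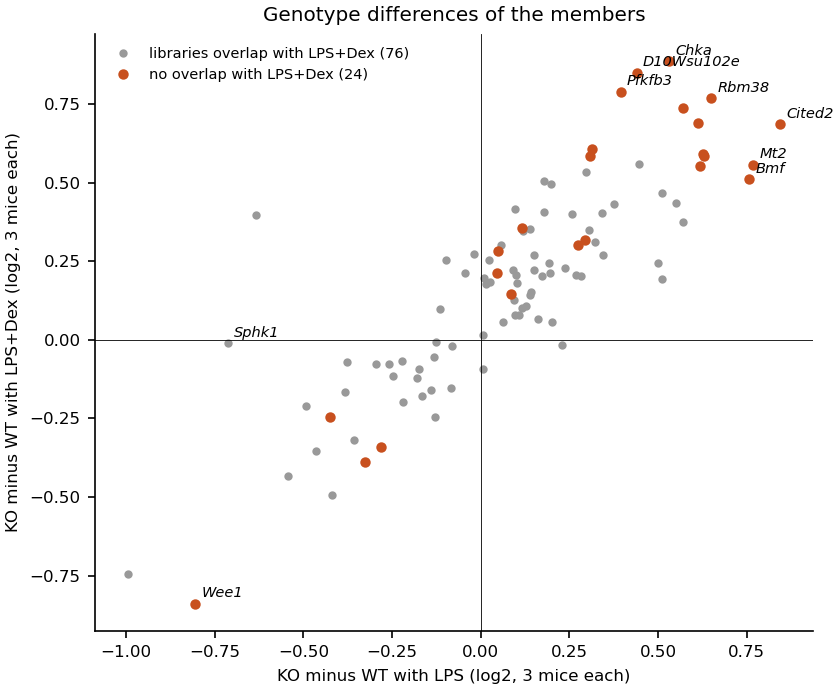
KO minus WT (log2, means of 3 mice each) with LPS + Dex (vertical) against LPS (horizontal) for the 100 members. Orange points are the 24 members whose WT and KO libraries did not overlap with LPS + Dex, 20 above 0 and 4 below, and Wee1 is the lowest of them.

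With LPS + Dex, Chka was at 4.59, 4.38 and 5.01 log2 CPM in the WT and 5.42, 5.47 and 5.75 in the KO, a difference of 0.89 ± 0.18 (SE, limma adjusted p = 0.174). D10Wsu102e was higher in the KO by 0.85 ± 0.21 (limma adjusted p = 0.204), Pfkfb3 by 0.79 ± 0.26 (0.302 in limma) and Rbm38, an RNA-binding target of p53, by 0.77 ± 0.21 (0.234 in limma). Wee1 was at 3.23, 3.5 and 2.79 in the WT and 2.32, 2.75 and 1.94 in the KO (-0.84 ± 0.26, limma adjusted p = 0.283). With LPS alone, Cited2 was at 8.23, 7.65 and 8.23 in the WT and 8.98, 8.89 and 8.77 in the KO (0.84 ± 0.17, limma adjusted p = 0.254), the largest difference without overlap. Next among the members without overlap were Wee1 (-0.81 ± 0.23), Mt2 (0.77 ± 0.24), Bmf (0.76 ± 0.24) and Sphk1 (-0.71 ± 0.37). In untreated cells the members with the largest differences and no overlap were Sphk1, Edn1, Thbd, Trp53inp1 and Dennd4a, with -1.66 ± 0.80, 1.47 ± 0.92, 1.13 ± 0.38, 0.81 ± 0.47 and 0.68 ± 0.38, from 2 libraries per genotype. Most of each difference lay between KO185 and WT198, at -2.79, 2.42, 1.69, 1.40 and 1.27 in that order, against -0.52, 0.52, 0.58, 0.22 and 0.10 between KO127 and WT112. None of these passed the adjusted threshold.

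Mice were paired into batches as far as the labels print a run. WT112 and KO127 share one on some of their libraries, WT187 and KO186 share a kind of sample number, and WT198, which prints no run, was set beside KO185 as the remaining pair. Taking these pairs as WT198 with KO185, WT112 with KO127 and WT187 with KO186, the median KO minus WT over the members was 0.14, 0.07 and 0.12 with LPS and 0.18, 0.14 and 0.20 with LPS + Dex, in that order. In all 3 pairs 37 members were higher in the KO with LPS, beside 21.5% of all genes, and 50 with LPS + Dex, beside 26.3%. With batch as a block, Mt2 passed with LPS (limma adjusted p = 0.043), beside 0.125% of all genes, and Chka and Pfkfb3 passed with LPS + Dex (limma adjusted p = 0.0354 and 0.0327), beside 0.499%. Leaving out the LPS + Dex library of WT112 let 6 members and 146 genes in all pass with LPS + Dex. Leaving out its untreated library let 41 members and 3905 genes pass in untreated cells, where the WT198 library that stood apart was then the only WT library.

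The Dex difference itself, which chose the members in both genotypes, was larger in the KO mean for 67 members and in the WT mean for 33, with a median KO minus WT of 0.07, and 52.7% of all genes were larger in the KO mean. All 3 KO mice were above all 3 WT mice for 10 members (Fzd4, Pfkfb3, 1700017B05Rik, Jdp2, Chka, Sgms1, Mlxip, Cd38, Fbxl5 and Fam107b), beside 7.69% of all genes, and below them for 2 (Bmf and Napepld), beside 5.27%. The widest gap was 1.03 for Fzd4. These are descriptions with no test.

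GENCODE vM21 (GRCm38, which is mm10) placed all 100 members, 98 as protein-coding genes, AW112010 as a lincRNA and Atp10d as a polymorphic pseudogene. Chromosome 2 held 15 members, 15% against 8.0% of all genes placed. Members lay within 250 kb of each other at 6 loci. Besides Mt1 and Mt2 these were Abhd15 and Ssh2 on chromosome 11 (54.9 kb apart), Id1 and Bcl2l1 on chromosome 2 (43.3 kb), Cd38 and Fbxl5 on chromosome 5 (46.9 kb) and Gdap2 and Wdr3 on chromosome 3. The last pair is read in opposite directions and overlaps by a few bases at the starts, and the source used here does not state that the counting used strand. The remaining locus held 3 members, Pfkfb3 (chr2:11471433-11554077, minus strand), Il15ra (chr2:11705290-11734317, plus strand) and Ankrd16 (chr2:11777876-11790329, plus strand). How often other genes of the table lie within 250 kb of each other was not counted, so the number of loci is no result about the members.

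Between Pfkfb3 and Ankrd16 the response was not shared by every gene. Rbm17, a splicing factor gene next to Pfkfb3, differed by 0.08, -0.01, 0.23, -0.07, 0.06 and 0.03. Il2ra, the IL-2 receptor alpha chain gene directly beside Il15ra, differed by -0.14, -0.20, 0.04, -0.42, 0.40 and -0.36. Il15ra, 151.2 kb from Pfkfb3, differed by 2.56, 2.48, 2.87, 2.72, 2.76 and 2.96, Fbxo18 by 0.33, 0.33, 0.45, 0.21, 0.31 and 0.46, and Ankrd16, 43.6 kb beyond Il15ra, by 0.83, 0.52, 1.10, 0.67, 0.66 and 0.93. Fbxo18 and Ankrd16 start next to each other on opposite strands, and both rose in all 6 mice.

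**Figure D5:**
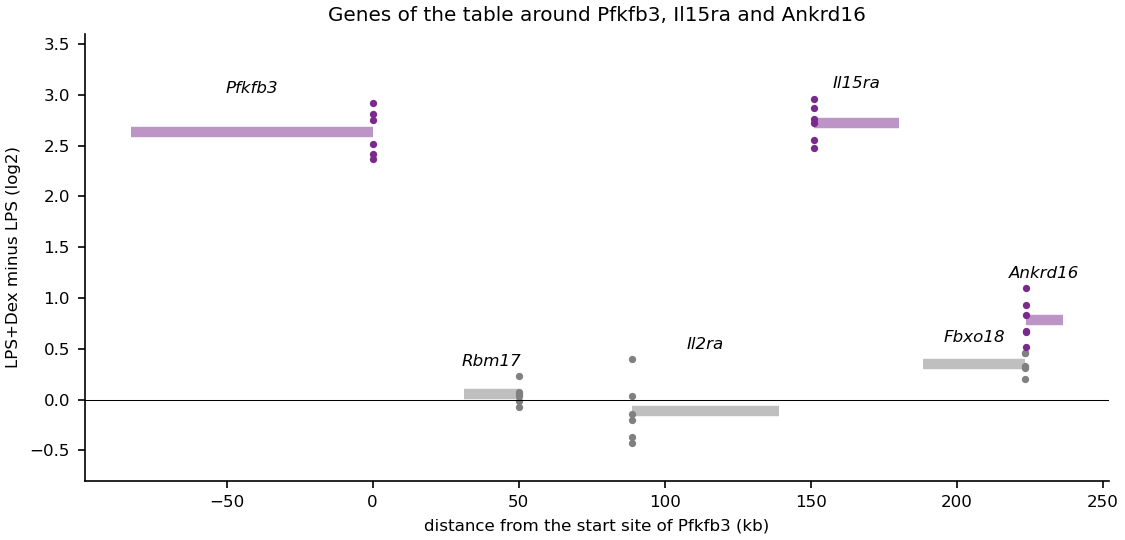
LPS + Dex minus LPS (log2, vertical) against distance from the start of Pfkfb3 (kb, horizontal) for the genes of the table around Pfkfb3, Il15ra and Ankrd16. Bars span each gene at its mean, points at its start are the 6 mice, and members are purple. Pfkfb3 and Il15ra lie at 2.63 and 2.72, with Rbm17 and Il2ra at 0.05 and -0.12 between them.

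The 9 members whose promoters held the AP-1 letters printed above did not respond to LPS alike. Sele and Sgms1 were over 1.5-fold higher with LPS in all 4 mice. Il15ra was at 1.33 to 2.05 log2 CPM against 0.67 to 1.30 untreated. Within the mice it was higher by 0.73, 0.70, 0.03 and 0.53, so KO185 hardly changed. Elf2, Havcr2 and Mt2 overlapped between the 2 conditions, with 5.51 to 5.81 against 5.18 to 6.12 for Elf2, 3.58 to 5.49 against 3.87 to 5.43 for Havcr2 and 5.73 to 7.24 against 4.98 to 7.38 for Mt2. These ranges mix mice, and the mean differences within the 4 mice were -0.08, -0.21 and 0.34. Sphk1 differed within the mice by -0.95, 0.43, 0.79 and 0.82, Fam107b by 0.45, 0.10, -0.04 and -0.05, and Rbm38 by -0.22, -0.11, 0.20 and 0.36.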

How the data were processed

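RNA-seq of 16 BMDM libraries was analysed. The authors deposited log2 CPM for 9614 genes. Paired reads had been placed on mm10 in CLC Bio Genomic Workbench, only reads unique to exons were tallied, and the authors scaled the tallies in edgeR by its weighted trimmed mean. The submitters' processing notes name CASAVA 1.8, FastQC and edgeR. The deposited table also holds the authors' p-values and FDR values, which were not used, and 0 columns of sample values were left unused. Values below 3 CPM were whole multiples of 1 read (tolerance 0.1), which gave 25030999 to 49730049 reads per library.

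Members and gene lists were chosen with earlier results of these data known. Roles were assigned after the members were known. The deposited log2 CPM were fitted with lmFit and eBayes (trend) in limma 3.58.1 under R 4.3.3, without pseudocount or further filter, with Benjamini-Hochberg adjustment over all genes. KO was compared with WT within a treatment, and the mean of LPS and LPS + Dex with untreated cells over all libraries. Other steps used Python 3.11.15, pandas 2.3.3 and numpy 2.4.6. Tests were tried on simulated data with independent libraries. These had no pairing by mouse and no batches, so the trial says nothing about the effect of either. Groups and pairing come from the mouse numbers of the labels. Libraries of a mouse deviated together from their group means (r = 0.448 to 0.939). Nothing in the labels says that mice of a group are from separate litters. The p-values of KO against WT measure the spread between these mice. The main fit of the combined contrast had no term for the mouse, so its errors and p-values treat libraries of a mouse as independent.

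Named genes are the first 15 members, the last 3 and the next 3, up to 5 per genotype comparison with the largest difference among those without overlap, up to 5 highest and 5 lowest of the combined contrast, members in a fixed list, the 5 dropped genes, Nelfb, Nr3c1 and the 3 highest members. Other members were named after their values were seen, as were the promoter windows. The rule's promoter criterion named none. Leaving a mouse out of the comparisons with untreated cells was chosen after seeing the data. Alternatives were the replicate block, batch block, other fits, filters and scales, centring, voom on recovered reads and each library left out. A member and a gene list are not reported here.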

Additional observations from a re-analysis of the deposited data

Results flagged for a closer look

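LPS minus untreated moved in opposite directions in the 2 genotypes for 7 members, with both WT mice on one side of 0 and both KO mice on the other, a pattern shown by 5.71% of all genes. The count is near that share and is no result about the members. The difference between the genotypes was not tested. The mean of the KO mice minus that of the WT mice was -0.31 for Cytip, 0.79 for Lcn2, -0.32 for Net1, -0.25 for Kcnk6, 0.41 for Bcl2l1, -0.32 for Fam107b and 0.45 for Rbm38 on the log2 scale. Lcn2 had the widest gap, with -0.71 and -0.11 in WT198 and WT112 and 0.32 and 0.45 in KO185 and KO127. Bcl2l1 was at -0.58 and -0.10 in the WT and at 0.08 and 0.06 in the KO. Some of the moves were close to 0. Cytip was at 0.07 and 0.09 in the WT and -0.45 and -0.02 in the KO, and Net1 at 0.32 and 0.17 against -0.11 and -0.05. Kcnk6 was at 0.29 and 0.07 against -0.04 and -0.10, and Fam107b at 0.45 and 0.10 against -0.04 and -0.05. The WT value of larger size came from WT198, whose untreated library stands apart, for Lcn2, Net1, Kcnk6, Bcl2l1, Fam107b and Rbm38, and its part was not tested.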

How the results depend on the processing

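Of the 100 members, 88 stayed when the mean of the 6 differences replaced the smallest, 93 to 99 when 1 mouse was left out, 95 on log2(CPM + 1), 99 to 100 with another minimum level, 100 with centring and 88 with the dropped genes kept. No member passed between KO and WT, against 1, 8 and 10 members in untreated, LPS and LPS + Dex cells over 1.5-fold with unadjusted p below 0.05. Under the batch block 1 member passed with LPS and 2 with LPS + Dex, and with the mouse as a replicate block in a fit of all libraries 1 passed with LPS + Dex (D10Wsu102e) and 0 with LPS and in untreated cells. Leaving out 1 library gave 0 to 41 members in untreated cells, 0 to 1 with LPS and 0 to 6 with LPS + Dex, the highest each time without the library of WT112. In the combined contrast, 47 members and 1312 genes in all in the WT became 26 and 401 when the 8 WT libraries were fitted alone, 56 and 2143 with the replicate block, and 32 to 66 and 445 to 4534 with 1 library left out. In the KO, 33 members and 460 genes in all became 46 and 608 with the replicate block, 44 and 528 when the 8 KO libraries were fitted alone, and 17 to 34 and 300 to 446 with 1 library left out, the lowest without the untreated library of KO127. The other fits stayed within 1.5 times. For 31 single-gene results under 421 alternatives in all, 393 kept their side of the threshold, 16 lost and 12 gained a call, and 0 changed direction. The cause of these shifts was not tested. With 2 untreated libraries per genotype, a single library decides much of what is said against untreated cells.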
